A study of Homo sapiens with 19 samples.

Results

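The genes described here are 41 interferon-stimulated genes, of 44717 genes listed in any of the count tables and 33031 listed in all of them. They were given as a list of symbols and matched to the Ensembl identifiers of the tables, and all 41 were listed in all 19 libraries. DDX58 was matched under this older symbol of the RIG-I gene.

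The libraries came from 501Mel, a human melanoma line, and from Hermes 3A, an immortal but untransformed human melanocyte line. Lentiviral short hairpin RNAs (shRNAs) were directed against BRG1, the ATPase of the SWI/SNF chromatin remodelling complex encoded by SMARCA4, or against MITF, the transcription factor of the melanocyte lineage, or had a scrambled sequence. The paper names a single construct for each target, so loss of the target and other effects of its hairpin cannot be told apart. In 501Mel there were 3 shBRG1 libraries with 3 scramble libraries of their own (shSCR1), and 2 shMITF libraries with 2 other scramble libraries (shSCR2). In Hermes 3A there were 3 shBRG1, 3 shMITF and 3 scramble (shSCR) libraries, so both Hermes 3A knockdowns were compared with the same controls. All groups, the scrambles included, had been infected with a lentivirus and selected with puromycin, and no uninfected cells were among the libraries. Hermes 3A was grown with phorbol ester, cholera toxin, stem cell factor and endothelin, and 501Mel was not, so that line and medium cannot be told apart. Total RNA was depleted of ribosomal RNA before sequencing, and the tables held between 29158502 and 78857900 counts per library. The labels do not say that libraries of a group came from separate cultures, so the p-values measure the spread between these libraries, which may be technical.

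SMARCA4 was at 185.6 to 197.6 CPM (counts relative to the library total, for SMARCA4 and MITF without TMM scaling) in 501Mel shSCR1 and at 45.12 to 50.69 in shBRG1, and at 196.2 to 221.9 in Hermes 3A shSCR and 41.37 to 45.34 in shBRG1. MITF was at 1013 and 1104 CPM in 501Mel shSCR2 and at 509.2 and 575.2 in shMITF. In shSCR1, the other scramble group of 501Mel, MITF was at 534.8 to 631.3, which overlaps shMITF. SMARCA4 also differed between these scramble groups, at 314.4 and 305.7 in shSCR2. In Hermes 3A, MITF was at 875.3 to 966.5 in shSCR and at 405.2, 722.1 and 508.5 in the 3 shMITF libraries, the second of which kept the most. MITF was also lower in 501Mel shBRG1 than in shSCR1, at 238.1 to 274.1 CPM (log2 fold change -1.55 with TMM scaling). In Hermes 3A shBRG1 it was at 715.8 to 743.6, below every shSCR library of that line. The 7 melanocyte lineage markers summed to 34120 to 36850 CPM in 501Mel shSCR1 and to 56580 to 57850 in Hermes 3A shSCR, each TMM-scaled within its shBRG1 comparison. On the common scale of the scramble libraries of both lines, they summed to 27730 to 29420 and to 60090 to 61620. All CPM values of the members are likewise TMM-scaled within their comparison.

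Interferons are secreted proteins that cells release on sensing viral nucleic acid. Type I interferon binds the IFNAR1 and IFNAR2 receptor chains, the kinases JAK1 and TYK2 are activated, and transcription factors that include STAT2 and IRF9 then bind the interferon-stimulated response element (ISRE) before its target genes. The products block viral entry, translation, replication and release, and several of them (the sensors, STAT2, IRF9 and IRF7) feed back on the pathway itself, so that a cell without an infection may still express the genes at a steady level.

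The promoters of 6 members that the results turn on are shown with the ISRE core, GAAANNGAAA on either strand (TTTCNNTTTC when read on the other), in capitals, because members with very different changes below carry the same letters. They are 60-base windows that lie before the annotated start, 5′ to 3′ on the strand of the gene, from RefSeq on GRCh38.p14. ISG15 is at chr1:1013350-1013409 (plus strand), IFIT1 at chr10:89392480-89392539 (plus), IFI6 at chr1:27672266-27672325 (minus), BST2 at chr19:17405735-17405794 (minus), GBP1 at chr1:89065316-89065375 (minus) and IFI44L at chr1:78620335-78620394 (plus).
ISG15: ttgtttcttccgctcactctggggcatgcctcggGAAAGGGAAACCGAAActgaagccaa
IFIT1: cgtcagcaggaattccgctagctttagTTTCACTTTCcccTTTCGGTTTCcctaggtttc
IFI6: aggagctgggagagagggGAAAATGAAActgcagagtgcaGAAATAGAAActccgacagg
BST2: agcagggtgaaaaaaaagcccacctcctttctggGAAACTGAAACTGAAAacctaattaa
GBP1: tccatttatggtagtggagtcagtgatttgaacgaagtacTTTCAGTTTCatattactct
IFI44L: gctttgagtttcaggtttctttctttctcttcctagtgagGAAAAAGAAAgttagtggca
The windows of ISG15, IFIT1, IFI6 and BST2 held 2 cores each, which overlap in ISG15 and BST2, and those of GBP1 and IFI44L held 1. Of the 41 members, 31 had a promoter of 300 bases (250 before the start and 50 after) in the RefSeq table, and 20 of these (64.5%) held at least 1 ISRE core, as did 3.57% of all 35116 promoters. The gamma-activated site TTCNNNGAA, a motif of promoters that interferon gamma induces, was in 8 (25.8%) against 7.66% of all promoters. The E-box CACGTG or CATGTG, the motif of MITF, was in 5 (16.1%) against 17.6%. The 3 motifs were searched on both strands, and a match of one was allowed to overlap a match of another. A match is only a match of letters.

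Hermes 3A melanocytes held most of these genes at a far higher level than 501Mel melanoma cells when both carried a scrambled shRNA. Of 40 members tested, 36 were higher in Hermes 3A and 2 were lower, at an adjusted p under 0.05 and an absolute log2 fold change over 1 (edgeR quasi-likelihood test, Benjamini-Hochberg adjusted, 3 Hermes 3A against 5 501Mel libraries), the threshold used for every call below. Over all 20354 genes tested, 18.0% were called higher and 20.1% lower. In such bulk libraries, fewer expressing cells and less RNA per cell cannot be told apart. The median log2 difference was 3.32 over the members and -0.08 over all genes. Per kilobase of exon, the 41 genes summed to 3428 CPM in Hermes 3A shSCR, 423.2 in 501Mel shSCR1 and 217.3 in shSCR2.

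**Figure D1:**
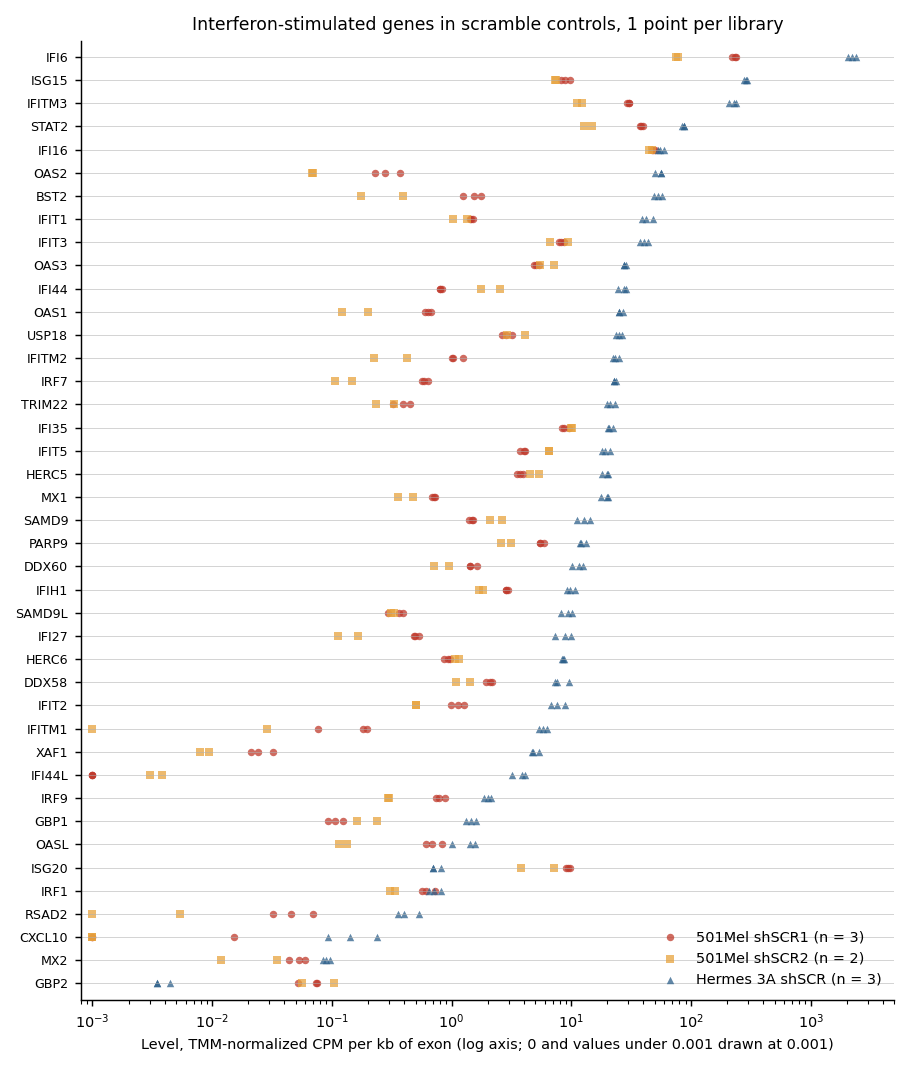
Level of each of the 41 members in the 8 scramble libraries, in CPM per kilobase of exon on a log axis, with 1 point per library and the genes ordered by their Hermes 3A mean. Hermes 3A libraries lie to the right of all 5 501Mel libraries for most genes, whereas IFI16 and IRF1 lie close together and ISG20 and GBP2 are to the left.

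IFI6, a small protein of mitochondria and the endoplasmic reticulum that opposes apoptosis, was the most abundant member per kilobase in all 3 scramble groups, at 2220 ± 183 CPM per kb (SD, n = 3) in Hermes 3A, 228.8 ± 8.30 (n = 3) in shSCR1 and 76.4 ± 1.71 (n = 2) in shSCR2. It made up 64.8% of the summed level in Hermes 3A, 54.1% in shSCR1 and 35.2% in shSCR2. In Hermes 3A it was followed by ISG15, a ubiquitin-like modifier (287 ± 8.75), IFITM3, a membrane protein that blocks viral fusion (225 ± 14.3), and STAT2 (86.5 ± 2.07), none of whose ranges overlapped that of the next gene. IFI16, OAS2 and BST2 came next at 55.9 ± 3.38, 54.3 ± 3.50 and 52.7 ± 3.98, and the ranges of IFI16 and OAS2, and of OAS2 and BST2, overlapped. IFIT1 was at 43.3 ± 4.91, IFIT3 at 40.7 ± 3.07 and OAS3 at 27.9 ± 0.457. In 501Mel the order differed, with IFI16, a sensor of DNA, second at 48.4 ± 1.4 in shSCR1 and 45.9 ± 1.91 in shSCR2, followed by STAT2 and IFITM3. OAS2, an enzyme that makes the 2′-5′ oligoadenylate activator of RNase L, was at only 0.294 and 0.0690 CPM per kb in shSCR1 and shSCR2.

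The sensors and effectors differed by line to unequal degrees. IFI44L was listed at 0 counts in all 3 shSCR1 libraries and at 1 and 3 counts in the shSCR2 libraries, against 1182 to 1938 in Hermes 3A, which is at least 1860-fold higher than shSCR1 at a floor of 3 counts over the group. OAS2 (log2 difference 8.57), XAF1, a proapoptotic zinc-finger protein (8.35), IFITM1 (7.11), BST2, the tetherin that holds virions at the cell surface (6.43), OAS1 (6.39) and IRF7, the amplifying transcription factor of the type I response (6.33), followed. TRIM22 (6.00), IFITM2 (5.37), ISG15 (5.14), MX1 (5.12), IFIT1 (5.06), IFI27 (5.00), RSAD2 (4.85), SAMD9L (4.79), IFI44 (4.32) and IFI6 (4.07) also had log2 differences over 4. IFITM3 (3.59), DDX60 (3.38), IFIT2 (3.36), GBP1 (3.28), HERC6 (3.07), USP18 (2.95), SAMD9 (2.77), DDX58 (2.33), IFIT3 (2.31), OAS3 (2.30), and OASL (2.18) came after them, and the other 8 genes called higher had log2 differences of 1.16 to 2.17. IFI16 (0.25 ± 0.05, SE) and IRF1 (0.67 ± 0.13) were not called. Against shSCR1 alone OASL (0.89) and MX2 (0.78) fell under the threshold, as did IFI35 (0.96) with unscaled library sizes, and these were named after their values were seen. The values of XAF1, IFITM1 and RSAD2 rest on few 501Mel counts, so their places in this order are uncertain. XAF1 had 5 to 11 counts per shSCR1 library and 2 and 4 in the shSCR2 libraries. IFITM1 had 3 to 11 per shSCR1 library and RSAD2 8 to 19, with 1 and 2 over the shSCR2 libraries together. The ratio of Hermes 3A to shSCR2 was 681 for IFITM1 (exact interval 122 to 26900, counting error only) and 111 for RSAD2 (30.4 to 921).

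ISG20, a 3′ to 5′ exonuclease, and GBP2, a guanylate-binding protein that interferon gamma induces, went the other way. ISG20 was at 87.99, 83.16 and 85.91 CPM in 501Mel shSCR1, at 55.10 and 28.78 in shSCR2 and at 4.87 to 5.80 in Hermes 3A, each value scaled within its own comparison, and was lower in Hermes 3A by a log2 difference of -3.27 ± 0.24 (SE). GBP2 had 3 counts in all Hermes 3A shSCR libraries together, against 17 to 26 per library in shSCR1. Its ratio of shSCR1 to Hermes 3A was 17.8 (95% interval 5.79 to 88.5, counting error only). CXCL10, a chemokine, was too low for the test in this comparison, with 24 counts over 3 Hermes 3A libraries and 1 over 5 501Mel libraries.

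The 2 groups of 501Mel scramble libraries were not alike in these genes. In a comparison added after the data were seen, 14 of 38 members tested were lower in shSCR2 than in shSCR1 and 1 was higher, with 20.7% of 19056 genes lower and 12.3% higher. Among them were STAT2 (log2 difference -1.48), IRF9 (-1.43), IRF7 (-2.17), OAS1 (-2.06), OAS2 (-2.10), OASL (-2.55), IFITM3 (-1.37), BST2 (-2.61), IFI27 (-1.79) and IFI6 (-1.59), while IFI44 was higher (1.42). The tables of the shSCR2 and shMITF libraries also listed fewer genes (41467) than those of shSCR1 and shBRG1 (42224). Against shSCR1 alone 34 members were higher in Hermes 3A (18.2% of all genes), and against shSCR2 alone 37 (22.9%). The knockdown results in 501Mel are each given against their own scramble group, and with both groups pooled where a call changed.

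With BRG1 silenced, Hermes 3A held many of these genes at a higher level still. Of the 41 members, all of which were tested, 20 were called higher and 0 lower by edgeR, and 0 were lower by DESeq2, with 5.78% of 17222 genes higher and 3.47% lower. Without the threshold on fold change, 38 members had a higher level at an adjusted p under 0.05, as did 28.2% of all genes, and 2 a lower level (IFI16 and BST2), as did 28.6%. The median log2 fold change was 0.98 for the members, with a range of -0.37 to 4.27, and 0.01 for all genes. In 38 of the 41 members every shBRG1 library was above every scramble library, as in 31.1% of all genes tested, and in 2 every one was below (30.7%). Summed over the members, the level was 5368 to 5520 CPM in shSCR and 10200 to 10890 in shBRG1.

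**Figure D2:**
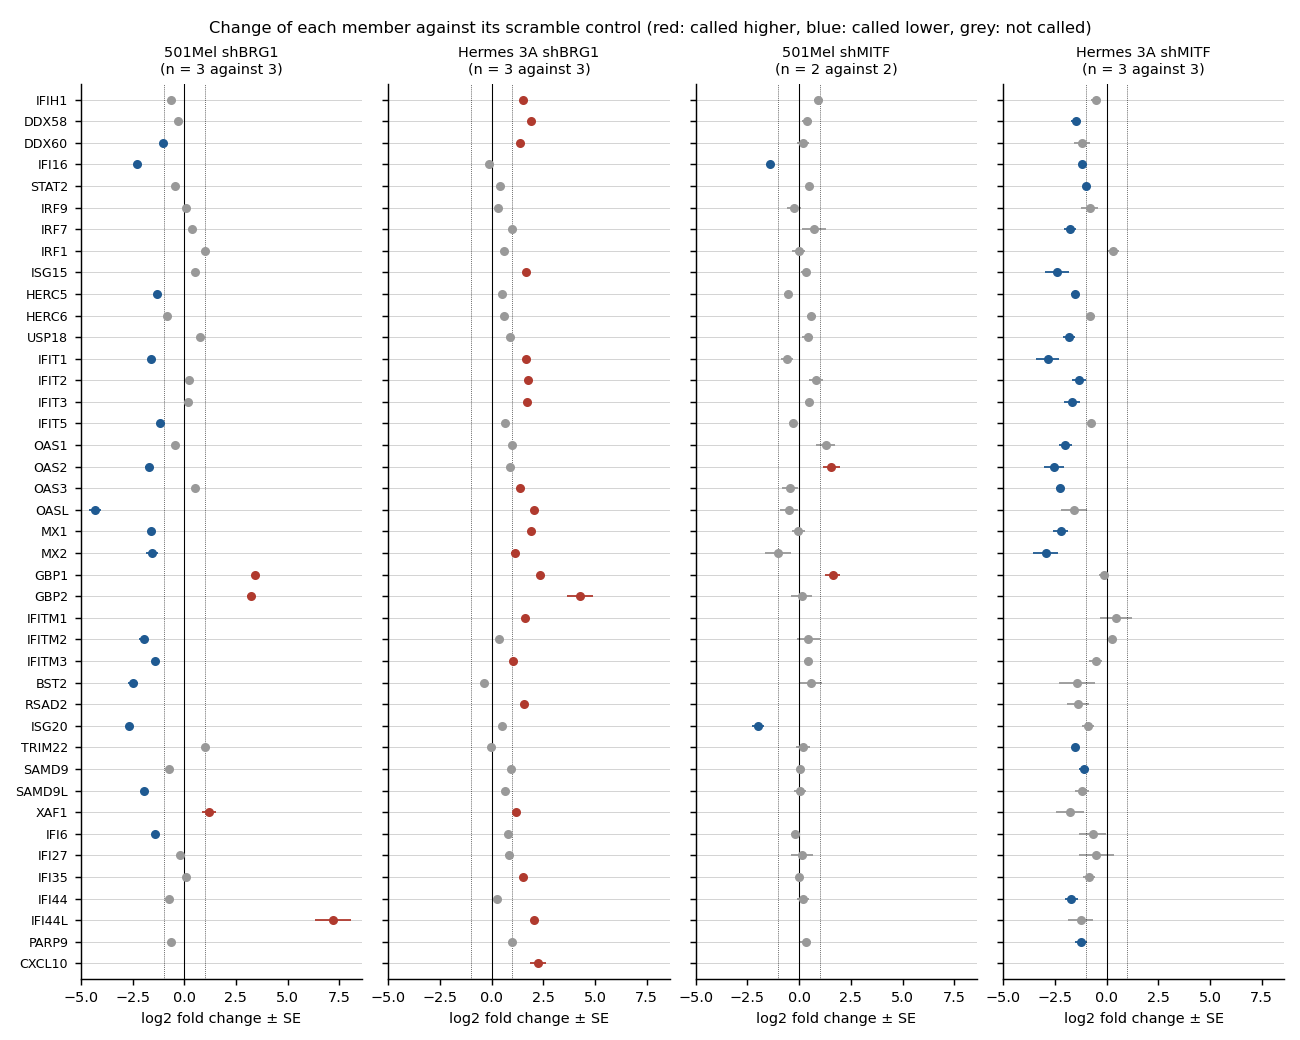
Log2 fold change of each member with its standard error against the scramble control of its comparison, in 4 panels, with members in order of their roles and untested members left blank. Hermes 3A shBRG1 points lie almost all to the right of 0 and Hermes 3A shMITF points almost all to the left, while 501Mel shBRG1 points lie on both sides, from -4.31 to 7.21.

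The cytoplasmic RNA sensors were among the genes that rose in Hermes 3A shBRG1. DDX58 encodes RIG-I and was at 31.15, 30.45 and 38.91 CPM in shSCR and at 122.8, 121.4 and 127.4 in shBRG1. Its log2 fold change was 1.88 ± 0.07 (SE, n = 3 against 3, adjusted p 4.21e-16 by the edgeR quasi-likelihood test, Benjamini-Hochberg adjusted). IFIH1, which encodes MDA5, was at 44.96 to 51.01 CPM and rose to 133.8 to 137.9 (1.52 ± 0.05), and DDX60, a helicase linked to RIG-I, rose from 65.59–79.73 to 187.4–197.2 (1.39 ± 0.05). The groups did not overlap for any of the 3. IFI16, the DNA sensor, did not follow and was at 268.6 to 296.4 CPM in shSCR and 248.6 to 257.4 in shBRG1 (-0.15 ± 0.04).

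The transcription factors of the response stayed below the threshold on fold change. STAT2 was at 492.1 to 504.2 CPM in shSCR and 640.8 to 669.7 in shBRG1 (0.40 ± 0.04), IRF9 at 6.79 to 7.60 and 8.51 to 9.80 (0.32 ± 0.09), IRF7 at 55.88 to 59.60 and 106.6 to 114.1 (0.96 ± 0.04), and IRF1 at 4.79 to 6.04 and 7.20 to 8.40 (0.57 ± 0.10). In each of the 4 genes the shBRG1 libraries were all above the scramble libraries.

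Of the ISG15 system, ISG15 itself was at 261.2, 259.0 and 245.1 CPM in shSCR and at 739.1, 832.1 and 860.1 in shBRG1 (1.67 ± 0.05). HERC5 and HERC6, the ligase of ISG15 and its relative, and USP18, the protease that removes ISG15 and a brake on the receptor, had log2 fold changes of 0.48, 0.60 and 0.87 and were not called. Reads of USP18 may be shared with its near copy USP41, since how the counting treated such reads is not given in the sources used here.

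The IFIT proteins bind viral RNA and block its translation, and 3 of the 4 rose in Hermes 3A shBRG1. IFIT1 went from 184.3, 171.7 and 210.4 CPM to 591.5, 611.7 and 611.8 (1.68 ± 0.05), IFIT2 from 26.15–34.00 to 94.77–102.7 (1.74 ± 0.07), and IFIT3 from 95.00–108.4 to 324.7–333.5 (1.70 ± 0.04). IFIT5 had a log2 fold change of 0.66. Of the OAS family, OAS3 rose from 214.1–220.5 CPM to 520.8–581.2 (1.35 ± 0.04) and OASL, a member without the synthase activity that supports RIG-I, from 3.36–5.27 to 17.43–18.72 (2.03 ± 0.10). OAS1 (0.98) and OAS2 (0.88) were just under the threshold.

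All 4 interferon-induced GTPases rose. MX1, which traps viral nucleocapsids, was at 159.7, 146.9 and 162.5 CPM in shSCR and at 568.1, 600.4 and 609.7 in shBRG1 (1.92 ± 0.05). GBP1, which acts on the membranes of intracellular pathogens, went from 6.26–7.45 CPM to 31.60–37.09 (2.34 ± 0.08). MX2, which acts on the nuclear entry of viruses, was low and went from 1.02–1.20 CPM to 2.14–2.81 (1.12 ± 0.19), with a log2 fold change of 0.98 without the second shBRG1 library. GBP2 went from 3 counts over the 3 scramble libraries to 77 over the 3 shBRG1 libraries, a ratio of 21.4 (95% interval 7.06 to 106, counting error only). Its fitted log2 fold change of 4.27 rests on those few counts.

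Among the membrane factors, IFITM1 rose from 5.42–6.52 CPM to 15.99–19.06 (1.60 ± 0.09) and IFITM3 from 265.1–306.5 to 565.0–597.6 (1.03 ± 0.05), the latter to 0.97 without the third scramble library. IFITM2 (0.34) and BST2 (-0.37) were not called, although neither pair of groups overlapped. The 3 IFITM genes are close paralogs, and reads may be split between them. Among the other antiviral genes, RSAD2, the radical enzyme viperin, rose from 1.63–2.45 CPM to 5.03–6.11 (1.54 ± 0.15), and XAF1 from 29.68–33.57 to 60.63–75.90 (1.15 ± 0.06). ISG20 (0.49), TRIM22 (-0.03), SAMD9 (0.93), SAMD9L (0.65), IFI6 (0.79) and IFI27 (0.84) were not called. TRIM22, a ubiquitin ligase that restricts retroviruses, was the only member of the 41 whose shBRG1 and scramble libraries overlapped, at 113.2 to 121.7 and 114.8 to 130.7 CPM.

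Of the remaining members, IFI44L rose from 31.46–39.65 CPM to 137.0–162.7 (2.06 ± 0.08), IFI35 from 37.51–41.82 to 105.5–114.7 (1.50 ± 0.05), and CXCL10, a chemokine that draws T cells, from 0.102–0.265 to 0.697–1.00 (2.23 ± 0.37). IFI44 (0.25) and PARP9 (0.98) were not called. IFI44 and IFI44L are neighbours on chromosome 1 and paralogs.

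BRG1 silencing in 501Mel moved these genes in both directions. Of 38 members tested, 4 were higher and 15 lower, with 21.7% of 20514 genes higher and 17.4% lower, so that the count of higher members lies under the background and that of lower members over it. The median log2 fold change was -0.64 for the members and 0.05 for all genes. In 24 of the 38 tested members every shBRG1 library was below every scramble library (39.4% of all genes tested), in 11 every one was above (42.0%), and in 3 the groups overlapped. Without the threshold on fold change, 11 were higher (41.2% of all genes) and 23 lower (39.1%). With unscaled library sizes, all genes shifted by a median of 0.348, and 7 members were higher (30.2% of all genes) and 12 lower (11.7%), with a member median of -0.30. With both scramble groups pooled, 6 were higher (20.6% of all genes) and 10 lower (14.6%), the member median was -0.32, and 8 of the 15 kept their call.

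Of the genes that fell, IFI16 was at 325.4, 313.6 and 313.7 CPM in shSCR1 and at 67.67, 60.90 and 69.64 in shBRG1, a log2 fold change of -2.27 ± 0.05 (SE, n = 3 against 3, adjusted p 4.57e-21 by the edgeR quasi-likelihood test, Benjamini-Hochberg adjusted). ISG20 fell from 87.99, 83.16 and 85.91 CPM to 12.36, 14.69 and 13.36 (-2.67 ± 0.06). These were 2 of the 4 tested members that were not called higher in the Hermes 3A scramble libraries. OASL fell from 3.60, 2.69 and 3.01 CPM to 0.0188, 0.193 and 0.265 (-4.31 ± 0.30), the lowest fold change of the 41. HERC5 fell from 20.72–23.13 CPM to 8.50–8.88 (-1.34 ± 0.07), IFIT1 from 8.26–8.59 to 2.60–2.94 (-1.61 ± 0.10), IFIT5 from 18.43–20.48 to 8.23–9.40 (-1.18 ± 0.08), MX1 from 7.26–7.77 to 2.10–2.67 (-1.62 ± 0.11), and SAMD9L, a translation inhibitor, from 2.57–3.46 to 0.655–0.942 (-1.93 ± 0.18). These 8 also passed with pooled scrambles.

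The other 7 passed against shSCR1 but not with pooled scrambles. IFI6 was at 235.0 to 251.0 CPM in shSCR1 and at 82.45 to 104.7 in shBRG1 (-1.41 ± 0.06), and with pooled scrambles its value was -0.92 with a Benjamini-Hochberg adjusted p of 0.11 in edgeR. IFITM3 went from 49.09–51.40 CPM to 16.78–20.95 (-1.40, and -0.95 pooled), IFITM2 from 1.95–2.38 to 0.353–0.732 (-1.96 and -1.45), BST2 from 1.71–2.47 to 0.250–0.565 (-2.48 and -1.86), OAS2 from 1.799–2.88 to 0.597–0.810 (-1.70 and -1.13), MX2 from 0.711–0.953 to 0.226–0.347 (-1.57 and -1.19), and DDX60 from 11.81–13.65 to 4.72–7.23 (-1.04 and -0.72). DDX60 was also under the threshold without the third scramble library, without the second shBRG1 library (-0.89) and with unscaled library sizes, as were HERC5 (-0.99) and IFIT5 (-0.83). In every one of the 7 the shBRG1 and shSCR1 libraries did not overlap.

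The 4 genes that rose in 501Mel shBRG1 were GBP1, GBP2, XAF1 and IFI44L. GBP1 went from 0.762, 0.578 and 0.650 CPM to 7.50, 7.53 and 6.53 (3.44 ± 0.15), and GBP2 from 0.405, 0.578 and 0.582 to 4.80, 4.76 and 4.92 (3.22 ± 0.17). XAF1 went from 0.171–0.262 CPM to 0.464–0.558 (1.20 ± 0.32). IFI44L was listed at 0 counts in the 3 scramble libraries and at 19 to 22 counts in each shBRG1 library, 62 in all, which is at least 16.0-fold higher at a floor of 3 counts over the group. In none of the 4 genes did the groups overlap, and all 4 kept their call with pooled scrambles. Below the threshold on fold change, TRIM22 (0.996), IRF1 (0.98), USP18 (0.76), ISG15 (0.53), OAS3 (0.51) and IRF7 (0.36) had positive values and IFIH1 (-0.63), DDX58 (-0.30), STAT2 (-0.44), HERC6 (-0.84), OAS1 (-0.44), SAMD9 (-0.73), IFI44 (-0.76) and PARP9 (-0.66) negative ones. IRF9, IFIT2, IFIT3, IFI27 and IFI35 lay between -0.22 and 0.23. IFITM1, RSAD2 and CXCL10 were too low for the test, and CXCL10 had 1 count over the scramble libraries and 38 over the shBRG1 libraries, a ratio of 29.4 (95% interval 4.96 to 1190, counting error only).

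The effect of shBRG1 differed between the lines for most members. In the test of the difference itself, over all 41 members, 29 had a lower log2 fold change in 501Mel and 3 a higher one, and 14.9% and 12.0% of all genes tested did so. Among the 38 members tested in both lines, 6 fell in 501Mel and rose in Hermes 3A (DDX60, IFIT1, OASL, MX1, MX2 and IFITM3), which is 6 of the 15 that fell in 501Mel and of the 17 that rose in Hermes 3A. GBP1, GBP2, XAF1 and IFI44L rose in both, which is all 4 that rose in 501Mel and 4 of the 17. The share of all genes called in both lines was not counted, so these overlaps have no background to be read against. OASL had the largest negative difference (-6.37), followed by MX1 (-3.57), IFITM1 (-3.42), IFIT1 (-3.32) and ISG20 (-3.19). IFITM1 and RSAD2 are among the 29 but were too low for the test in 501Mel alone. In that line IFITM1 had 3 to 11 counts per shSCR1 library and 1 to 6 per shBRG1 library, and RSAD2 had 8 to 19 and 4 to 10. OASL had 1 to 12 counts per 501Mel shBRG1 library. The sizes of these differences rest on those few counts. IFI44L (4.99), GBP1 (1.07) and TRIM22 (1.004) had positive differences, of which that of TRIM22 was at the threshold and that of IFI44L rests on 0 counts in shSCR1. Without the second shSCR1 library, the third Hermes 3A shSCR library or the first Hermes 3A shBRG1 library, 1 of these 3 positive differences was left. In those fits 10.6% to 11.2% of all genes were called higher.

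**Figure D3:**
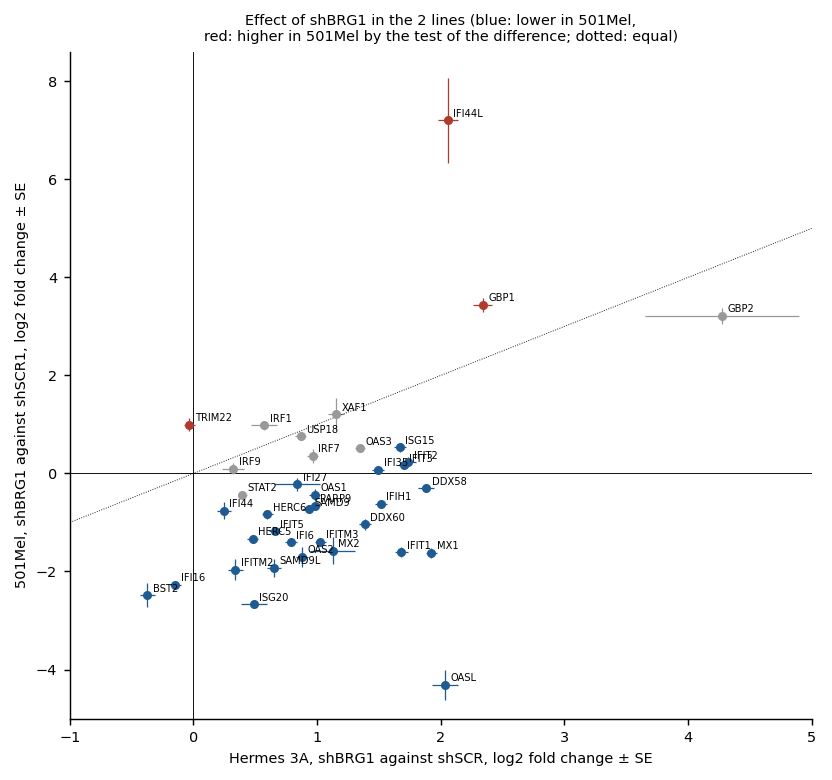
Log2 fold change of each member tested in both lines on shBRG1, Hermes 3A on the horizontal and 501Mel on the vertical axis, with standard errors and the line of equal change dotted. Most members lie below that line, with DDX60, IFIT1, MX1, MX2, IFITM3 and OASL in the quadrant of a rise in Hermes 3A and a fall in 501Mel.

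With MITF silenced, Hermes 3A held many of these genes at a lower level. Of 39 members tested, 19 were called lower and 0 higher by edgeR, and 0 were higher by DESeq2 or at an unadjusted p under 0.05, with 4.04% of 16508 genes lower and 3.35% higher. The median log2 fold change was -1.25 for the members, with a range of -2.95 to 0.47, and 0.05 for all genes. In 32 of the 39 tested members every shMITF library was below every scramble library (20.6% of all genes tested), in 0 every one was above (20.3%), and in 7 the groups overlapped. The table of these shMITF libraries listed 34033 genes and that of their controls 42224, a difference that cannot be told apart from the knockdown.

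The 3 Hermes 3A shMITF libraries differed among themselves more than those of any other group. The median log2 ratio of the members to the scramble mean was -1.57, -2.04 and -0.62 in the 3 libraries, where the 3 Hermes 3A shBRG1 libraries had 0.89, 1.01 and 0.98. Summed over the members, the level was 1137 to 3969 CPM against 5330 to 5537 in shSCR. Over all genes the SD of the log2 difference between pairs of these libraries was 0.651 to 0.812, and 0.269 to 0.495 in the other groups. The second library had the lowest members and the highest MITF level of the 3. IFI6 showed the spread most plainly, at 1265, 175.1 and 1992 CPM against 1646 to 2000 in shSCR (-0.66 ± 0.65, not called). BST2 was at 9.97, 2.39 and 50.17 CPM against 50.82 to 60.90 (-1.42 ± 0.86), IFI27 at 11.10, 2.91 and 58.89 against 28.46 to 39.84 (-0.50 ± 0.86), and IFITM1 at 6.74, 0.757 and 17.09 against 5.38 to 6.54 (0.47 ± 0.77). In all 4 the second library was far below the scramble libraries and the third was not.

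**Figure D4:**
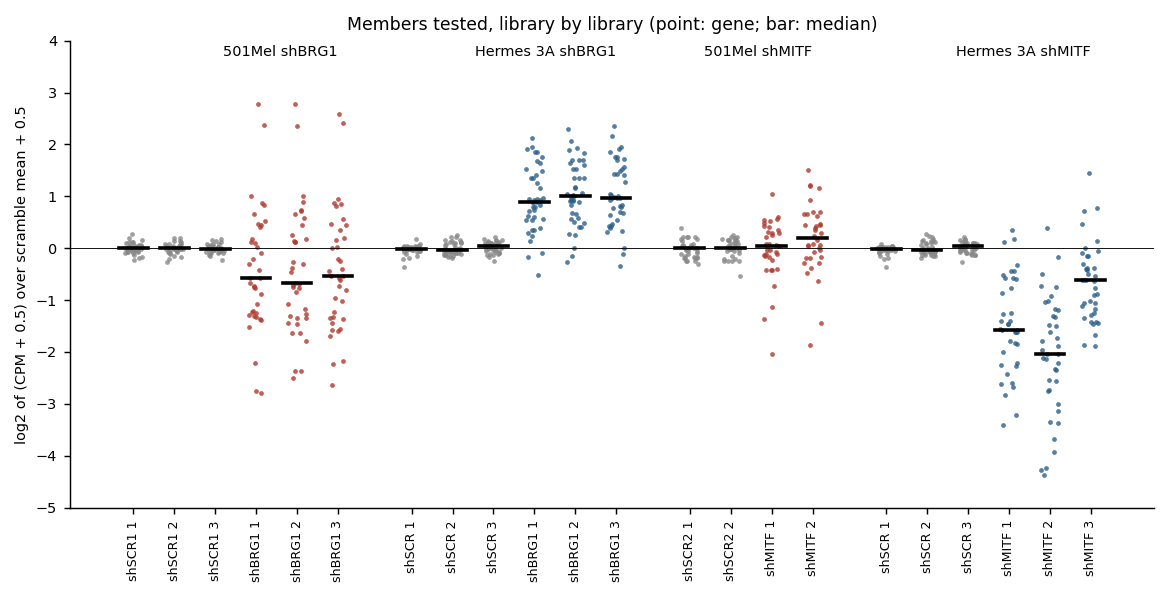
Log2 ratio of each tested member to the mean of its scramble group in every library, with a pseudocount of 0.5 CPM, 1 point per gene and a bar at the median. Scramble libraries (grey) centre on 0, the 3 Hermes 3A shBRG1 libraries agree near 1, and the Hermes 3A shMITF libraries have medians of -1.57, -2.04 and -0.62.

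Of the 19 genes that fell, 10 passed with each library left out in turn. OAS3 was at 219.1, 218.3 and 212.6 CPM in shSCR and at 35.50, 42.83 and 57.89 in shMITF, a log2 fold change of -2.26 ± 0.18 (SE, n = 3 against 3, adjusted p 0.000523 by the edgeR quasi-likelihood test, Benjamini-Hochberg adjusted). TRIM22 was at 115.2 to 129.7 CPM and fell to 45.13, 36.05 and 44.74 (-1.53 ± 0.13), and IFI16 was at 269.5 to 294.3 and fell to 104.5, 123.7 and 133.9 (-1.21 ± 0.14). In these 3 genes the shMITF libraries lay close together. HERC5 fell from 82.10–89.46 CPM to 21.33–37.71 (-1.53 ± 0.20), USP18 from 48.27–52.25 to 8.15–20.89 (-1.81 ± 0.29), IRF7 from 55.53–59.78 to 11.64–26.12 (-1.77 ± 0.29), DDX58 from 30.54–38.64 to 7.69–16.16 (-1.49 ± 0.25), OAS1 from 115.9–124.3 to 17.47–48.37 (-1.99 ± 0.33), MX1 from 147.4–161.3 to 18.90–56.96 (-2.21 ± 0.36), and IFI44 from 47.74–54.56 to 8.39–22.72 (-1.70 ± 0.31).

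The other 9 lost their call when one library or another was left out, with no change in direction. MX2 fell from 1.02–1.20 CPM to 0.0258, 0.146 and 0.267 (-2.95 ± 0.59), the lowest fold change, and IFIT1 from 172.2–208.9 to 17.14, 9.49 and 51.40 (-2.86 ± 0.53). OAS2 fell from 302.4–330.8 CPM to 44.51, 20.44 and 100.2 (-2.54 ± 0.48), and ISG15 from 243.4–259.8 to 39.35, 11.73 and 94.07 (-2.40 ± 0.59). IFIT3 (-1.66), IFIT2 (-1.34), PARP9 (-1.25), SAMD9 (-1.11) and STAT2 (-1.003, at the threshold) made up the rest. Without the first scramble library 12 members were called lower (2.39% of all genes), and without the third 11 (2.08%), although the scramble libraries resembled each other. Without the third shMITF library 27 were called lower (3.82%). With no filter on low counts 13 were called lower (2.32%), and 11 of the 19 kept their call. Without the first shMITF library 1 member was called higher (4.08%). In a test against a fold change of at least 2 in place of any change, 2 members were lower (0.618%).

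Not called lower were IFIH1 (-0.53), DDX60 (-1.20), IRF9 (-0.83), HERC6 (-0.79), IFIT5 (-0.74), OASL (-1.58), IFITM3 (-0.52), RSAD2 (-1.39), ISG20 (-0.90), SAMD9L (-1.19), XAF1 (-1.78), IFI35 (-0.86) and IFI44L (-1.25), with the 4 genes of widest spread above. GBP1 (-0.13), IFITM2 (0.24) and IRF1 (0.32) had values near 0, and the libraries of each overlapped those of shSCR. GBP2 had 3 counts over the scramble libraries and 72 over the shMITF libraries, of which 55 were in a single one, and was not tested. CXCL10 was listed at 0 counts in all 3 shMITF libraries against 24 over the scramble libraries, at least 6.06-fold lower at the same floor.

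MITF silencing in 501Mel changed few of these genes. Of 36 members tested, 2 were higher and 2 lower, with 5.59% of 17701 genes higher and 3.40% lower, shares near those of the members (5.56% in each direction). The median was 0.18 for the members and 0.01 for all genes, and with the scramble groups pooled the member median turned to -0.31. In 11 of the tested members both shMITF libraries were above both scramble libraries (32.5% of all genes tested), in 8 both were below (30.6%), and in 17 the groups overlapped. ISG20 fell from 55.10 and 28.78 CPM to 9.88 and 11.15 (-1.99 ± 0.31), and IFI16 from 259.7 and 240.9 to 96.46 and 92.19 (-1.41 ± 0.12). GBP1 rose from 0.841 and 1.22 CPM to 2.64 and 3.84 (1.63 ± 0.37), and OAS2 from 0.453 and 0.437 to 0.938 and 1.69 (1.56 ± 0.43, adjusted p 0.0327 by the edgeR quasi-likelihood test, Benjamini-Hochberg adjusted). Of these 4 calls, 3 changed when a library was left out. OAS2 was at -0.025 with the scramble groups pooled and lost its call without either scramble library or the second shMITF library. GBP1 lost its call without the second shMITF library, and ISG20 without either shMITF library. Leaving out a library leaves 1 in its group, and the share of all genes called then moved along with the number of members. The member median was 0.04 without the second shMITF library and 0.21 without the first. It was 0.17 without the first scramble library and 0.18 without the second. Only IFI16 passed with each library left out. MX2 (-1.04), IFIT1 (-0.57), OAS1 (1.29), IFIH1 (0.93) and IFIT2 (0.82) were not called, and IFITM1, RSAD2, XAF1, IFI44L and CXCL10 were too low for the test.

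The effect of shMITF differed between the lines in 11 of 40 members, all with a higher value in 501Mel, while 2.00% of all genes tested had a higher and 0.643% a lower one. A lower value in 501Mel was called in 0 members by edgeR (2 at an unadjusted p under 0.05) and in 1 by DESeq2 (1.47% of all genes). OAS1 (3.31), USP18 (2.21), IFIT2 (2.15), IFI44 (1.89), DDX58 (1.85), OAS3 (1.8), GBP1 (1.74), TRIM22 (1.67), STAT2 (1.46), IFIH1 (1.45) and HERC6 (1.37) made up the 11. IFI16 fell in both lines, and OAS2 rose in 501Mel and fell in Hermes 3A, of 35 members tested in both. The share of all genes called in both lines was not counted here either. The count moved to 23 without the third Hermes 3A shMITF library (2.66% of all genes). It moved to 3 without any 1 of the Hermes 3A scramble libraries (0.816% to 0.997%). Fewer members were also called without either shSCR2 library or without the second 501Mel shMITF library, fits that leave 1 library in a group. The difference in TRIM22 and STAT2 was called with every library left out in turn.

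Hermes 3A shBRG1 and Hermes 3A shMITF share their scramble libraries, so that their values are only set side by side. MX1 had log2 fold changes of 1.92 and -2.21, IFIT1 of 1.68 and -2.86, ISG15 of 1.67 and -2.40, DDX58 of 1.88 and -1.49, OAS3 of 1.35 and -2.26 and GBP1 of 2.34 and -0.13. These are examples from the members called higher in shBRG1, and opposite signs were not counted over all members. TRIM22, IFI16 and BST2 had negative values in both knockdowns, and IFITM1, IFITM2 and IRF1 had positive values in both.

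Members with and without an ISRE core were both among those called. Of the 20 with a core in the promoter window, 12 rose in Hermes 3A shBRG1 and 8 fell in Hermes 3A shMITF, and in 501Mel shBRG1 9 fell and 2 rose of 18 tested. Of the 11 with a matched promoter and no core, 3 rose in Hermes 3A shBRG1, 4 fell in Hermes 3A shMITF, and in 501Mel shBRG1 2 fell and 1 rose of 10 tested. The median log2 fold changes with and without a core were 1.37 and 0.65 in Hermes 3A shBRG1, -0.90 and -0.44 in 501Mel shBRG1, and -1.20 and -1.19 in Hermes 3A shMITF. Among the members printed above, BST2, with 2 cores in its whole promoter, and IFI6, with 3, were not called in Hermes 3A shBRG1. GBP1, with 1 core, rose in it. These are picked examples, and the number of cores was not tested.

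Other genes of the pathway were taken from lists of ligands, receptors and their kinases, sensors, inhibitors and further interferon-stimulated genes. Of 21 interferon ligands 13 were listed, and the highest count of any of them in any library was 13 (IFNE). IFNB1, the beta interferon, had at most 7 counts and was at 0 in 11 of 19 libraries, and no ligand was tested in any comparison. Of the remaining 87 genes, 85 were listed. In Hermes 3A shBRG1, 12 of 78 tested were higher and 2 lower (5.78% and 3.47% of all genes), among them BATF2 (2.12), CMPK2 (1.49), HELZ2 (1.27), NMI (1.20), APOL6 (1.13), C19orf66 (1.11), TRIM14 (1.10) and the regulator NLRC5 (1.39). In Hermes 3A shMITF, 12 of 77 were lower and 1 higher (4.04% and 3.35% of all genes), among them DDX60L (-2.08), DHX58, the LGP2 sensor (-1.99), EPSTI1 (-1.94), HELZ2 (-1.91), PLSCR1 (-1.75), the endotoxin receptor TLR4 (-1.58) and TRIM5 (-1.46), while IFITM10 rose (1.83). In 501Mel shBRG1, 21 of 76 were lower and 1 higher (17.4% and 21.7% of all genes), among them IFI30 (-3.00), UBE2L6, the conjugating enzyme of ISG15 (-2.64), TDRD7 (-2.36), UBA7, its activating enzyme (-1.97), IRF2BP1 (-1.71) and the phosphatases PTPN1 (-2.12) and PTPN11 (-1.92), while SOCS1, an inhibitor of JAK kinases, rose (1.68). In 501Mel shMITF, 5 of 73 were higher and 2 lower, close to the shares of all genes (5.59% and 3.40%), with NLRC5 (1.47), IFI30 (1.34), LGALS3BP (1.07) and NLRX1 (1.04) higher and PLSCR1 (-1.07) lower.

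Of the 10 receptor chains and kinases, 3 fell in 501Mel shBRG1 (17.4% of all genes), among them IFNAR1 (log2 fold change -1.17) and JAK1 (-1.42). IFNAR2 (-0.47) and TYK2 (0.27) were not called there. In Hermes 3A shBRG1, IFNAR1 (0.03), IFNAR2 (0.26), JAK1 (-0.32) and TYK2 (0.19) were not called. In Hermes 3A shMITF, 1 of the 10 was called lower (4.04% of all genes), while IFNAR1 (0.12) and JAK1 (-0.10) were not called. In the scramble libraries 43 of 81 tested genes of these lists were higher in Hermes 3A than in 501Mel (18.0% of all genes), led by CMPK2 (10.18), EPSTI1 (7.79), RTP4 (7.62), DHX58 (5.18), GBP3 (4.76), TRIM14 (4.64), and the DNA-sensing pair CGAS (4.58) and STING1 (4.13), and 5 were lower (20.1%).

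Markers of other cells were counted beside these results. The 11 immune markers summed to 0.491 to 0.591 CPM in Hermes 3A shSCR and 0.267 to 0.549 in shBRG1, and CD3E, CD3D and CLEC4C were at 0 counts in all 6 libraries. In Hermes 3A shMITF they summed to 0.749 to 1.34 CPM. In 501Mel they went from 2.09 to 3.74 CPM in shSCR1 to 8.82 to 10.34 in shBRG1, of which CSF1R and LYZ made up the rise (log2 fold changes 3.26 and 3.38) while PTPRC, the pan-leukocyte CD45, had at most 2 counts in any of these libraries. In 501Mel shMITF they summed to 1.96 to 3.68 CPM against 0.742 to 1.07 in shSCR2, with LYZ called higher (3.46). The 6 fibroblast markers summed to 63.75 to 72.56 CPM in Hermes 3A shSCR, 125.7 to 134.9 in shBRG1 and 103.3 to 198.1 in shMITF, and to 4.17 to 5.79 in 501Mel shSCR1 and 17.90 to 21.76 in shBRG1, while those of 501Mel shMITF (7.67 and 13.67) overlapped those of shSCR2 (7.50 and 8.83). The 5 keratinocyte markers summed to 29.42 to 31.14 CPM in Hermes 3A shSCR and 39.74 to 59.38 in shMITF, and to 25.39 to 27.24 in Hermes 3A shBRG1. In 501Mel the keratinocyte sums overlapped between each knockdown and its scramble group, and 1 of the 2 tested markers was called higher in shBRG1 (TP63, 2.64). The melanocyte markers summed to less than in the scrambles in every knockdown, at 27630 to 28690 CPM in Hermes 3A shBRG1, 23540 to 30890 in Hermes 3A shMITF, 3472 to 3789 in 501Mel shBRG1 and 11660 to 11680 in 501Mel shMITF. The part of these in the results above was not tested.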

How the data were processed

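RNA-seq was done on ribosomal RNA-depleted total RNA of 19 samples in 7 groups. The deposited files hold raw read counts per Ensembl gene, which the authors made from reads processed with CASAVA 1.8 and aligned to hg19 with TopHat 1.4.1 and Bowtie 0.12.7, per the submitters' processing notes. The counting program and its handling of strand and shared reads are not given in the sources used here.

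The counts were tested with edgeR 4.0.16 in R 4.3.3, using TMM normalization, filterByExpr by group, a robust quasi-likelihood fit over all genes listed in both groups' files, and Benjamini-Hochberg adjustment. Calls needed an adjusted p under 0.05 and an absolute log2 fold change over 1. Each knockdown was fitted with its own scramble group, the baseline with all scramble libraries of both lines, and the differences between lines as interaction terms. CPM values were TMM-scaled within each comparison, so the same scramble library differs between comparisons. The members of shSCR1 summed to 1312 to 1352 CPM per library in the shBRG1 comparison and to 1061 to 1099 at baseline. Levels per kilobase used union exon lengths of GENCODE 29. Groups at 0 counts were given a floor of 3 counts, and 95% intervals of ratios were exact and cover counting error only. Promoters were 250 bases before to 50 after RefSeq starts (GRCh38.p14), and 10 members were not matched (DDX58, IRF7, USP18, IFIT2, OAS2, OASL, MX2, GBP2, IFITM2 and TRIM22). Their coordinates are not those of the count tables.

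Tested on simulated data with 200 genes changed by a log2 of 2, the fits recovered all 200 in the 4 knockdown comparisons, the baseline and the shBRG1 difference between lines, and 185 in the shMITF difference. Between 0 and 11 unchanged genes were called per comparison. The changed genes were drawn from those above a minimum mean count, and all genes shared a common dispersion. The simulation therefore does not cover members with low counts or wide spread. Alternatives were DESeq2 1.42.0, unscaled library sizes (no TMM), other filters, other call rules, pooled or single scramble groups, a replicate block, a single fit of every group of a line, and leaving out each library. Members were named with values in a knockdown or baseline comparison where they were called, up to 30 by absolute log2 fold change, as were the 10 most abundant at baseline, and members that were not called where their family was described. Differences between lines are listed in full. Other pathway genes were named where called with at least 100 counts in the higher group, up to 8 a comparison. The members, the other gene lists and the promoter motifs were chosen with earlier results of these data known. For 1 other pathway gene that was tested, no values are reported here.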

Additional observations from a re-analysis of the deposited data

Results flagged for a closer look

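The difference in the effect of shBRG1 between the lines (log2 fold change in 501Mel minus that in Hermes 3A) passed the test of the interaction in edgeR in 32 members. The value was lower in 501Mel for IFIH1 (-2.17), DDX58 (-2.22), DDX60 (-2.45), IFI16 (-2.15), ISG15 (-1.17), HERC5 (-1.85), HERC6 (-1.46), IFIT1 (-3.32), IFIT2 (-1.54), IFIT3 (-1.56), IFIT5 (-1.86), OAS1 (-1.44), OAS2 (-2.61), OASL (-6.37), MX1 (-3.57), MX2 (-2.73), IFITM1 (-3.42), IFITM2 (-2.33), IFITM3 (-2.45), BST2 (-2.15), RSAD2 (-2.66), ISG20 (-3.19), SAMD9 (-1.69), SAMD9L (-2.61), IFI6 (-2.23), IFI27 (-1.09), IFI35 (-1.46), IFI44 (-1.04) and PARP9 (-1.68), and higher for GBP1 (1.07), TRIM22 (1.004) and IFI44L (4.99). With unscaled library sizes, ISG15, IFI27 and IFI44 fell under the threshold on fold change. IFITM1 and RSAD2 were too low for the test in 501Mel alone, so their differences rest on few counts in that line.

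The difference in the effect of shMITF passed in 11 members, all with a higher value in 501Mel. They were IFIH1 (1.45), DDX58 (1.85), STAT2 (1.46), HERC6 (1.37), USP18 (2.21), IFIT2 (2.15), OAS1 (3.31), OAS3 (1.8), GBP1 (1.74), TRIM22 (1.67) and IFI44 (1.89). The number called was 3 without any 1 Hermes 3A scramble library (0.816% to 0.997% of all genes). It was 23 without the third Hermes 3A shMITF library (2.66%). Fewer were also called without either 501Mel shSCR2 library or without the second 501Mel shMITF library, fits that leave 1 library in a group.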

How the results depend on the processing

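For the 501Mel shBRG1 comparison, 7 members were higher with unscaled library sizes (30.2% of all genes). With no threshold on fold change, 11 were higher (41.2%) and 23 lower (39.1%). For 501Mel shMITF, the members called higher were 1 with DESeq2 (4.66% of all genes), 4 with no filter on low counts (3.97%) and 1 with pooled scrambles (1.67%). The test against a minimum fold change (glmTreat) called 0 higher (0.797%) and 0 lower (0.463%). OAS2 reversed to -0.025 with pooled scrambles. With a library left out, the lone library of a group is assumed to vary like the other group. The member median was then 0.04 to 0.21. For Hermes 3A shBRG1, 38 were higher (28.2% of all genes) and 2 lower (28.6%) with no threshold on fold change. For Hermes 3A shMITF, 1 was higher with no filter (2.05% of all genes) or when every group of that line entered a single fit (4.3%). With a library left out, 0 to 1 were higher (1.39% to 4.08%). Called lower were 2 with glmTreat, 13 with no filter (11 of the 19 kept) and 11 to 27 with a library left out. At baseline, 1 was lower with a minimum of 10 counts in every sample (13.2% of all genes). The shBRG1 difference between lines was called higher in 501Mel for 1 to 3 members with a library left out (10.6% to 12.9% of all genes). The shMITF difference was called higher for 17 members with DESeq2 (3.19% of all genes) and 7 with no filter (1.47%). With a Hermes 3A library left out it was called higher for 3 to 23 (0.816% to 2.91%). It was called lower for 1 with DESeq2 (1.47%) and for at most 1 with a Hermes 3A library left out (0.203% to 1.26%). Causes were not tested. The share of all genes called moved with the setting as well. For lower calls in Hermes 3A shMITF it was 4.04% in the main fit, 0.618% with glmTreat and 2.32% with no filter. With a library left out it was 2.08% to 5.33%. With unscaled library sizes, the median of all genes moved by 0.348 in 501Mel shBRG1, 0.104 in Hermes 3A shBRG1, -0.196 at baseline and 0.274 in the shBRG1 difference.

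The replicate numbers were not taken to pair the libraries. Same-numbered deviations correlated at a mean of 0.01 in 501Mel shBRG1, 0.02 in Hermes 3A shBRG1 and -0.03 in Hermes 3A shMITF. In 501Mel shMITF, with 2 numbers only, the correlation was 0.13 for the same number and -0.13 for different ones, and nothing in the labels ties the numbers together. With the replicate number as a block, 4 members were higher and 15 lower in 501Mel shBRG1, 2 and 2 in 501Mel shMITF, 20 and 0 in Hermes 3A shBRG1, and 0 and 22 in Hermes 3A shMITF. In the same order, the shares of all genes were 21.7% and 17.4%, 6.37% and 4.12%, 5.89% and 3.48%, and 2.96% and 4.39%. The low counts of GBP2, IFI44L, CXCL10, IFITM1, RSAD2 and XAF1 limit their fold changes, and fitted values against a group near 0 depend on the prior count.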
